A study of Rattus norvegicus with 10 samples.

Results

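Testis macrophage genes are described here as they appear in round spermatid RNA of aged and young rats. They are the 10 genes Apoe, C1qa, C1qb, C1qc, Cd163, Cd68, Csf1r, Tyrobp, Fcer1g and Ctss, chosen by gene symbol, and each matched a single entry among the 32545 genes in the files. Messenger RNA was sequenced from wild-type Brown Norway rats aged 18 to 20 months (aged, 5 samples) and 4 to 6 months (young, 5 samples), all kept with free access to food and water. Round spermatids, the haploid cells that follow meiosis, were enriched from testis suspensions by STA-PUT, which sorts cells by how fast they sink. The labels do not say whether a sample is 1 animal or a pool, and the spread behind each p-value may therefore be technical.

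Macrophages are the most numerous immune cells of the testis. They lie between the seminiferous tubules, in close contact with the Leydig cells that make testosterone, and on the tubule wall, and they clear debris and damp immune responses to germ cells. Round spermatids lie inside the tubules, behind the barrier that Sertoli cells form. In rats, the resident testis macrophages are classically recognised by Cd163, and newly arrived ones by Cd68. The 10 genes cover lipid transport (Apoe), the recognition protein of the classical complement pathway (C1qa, C1qb and C1qc), surface receptors (Csf1r and Cd163), adaptors that carry receptor signals into the cell (Tyrobp and Fcer1g) and the lysosome (Cd68 and Ctss).

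Each of the 10 macrophage genes had a higher mean and a higher median in the aged spermatid libraries than in the young ones. None passed the test for an age difference, and 0 of all 12985 genes tested did. Cd68 was too low to enter that test. Values are FPKM, fragments scaled to the length of the gene and to the size of the library. The ratio of the aged mean to the young mean lay between 4.03 (Tyrobp) and 8.68 (C1qc). These means rested on few libraries: aged replicate 2 had the highest value and aged replicate 1 the second highest for 10 of 10 genes, and young replicate 5 was the highest young library for 9 of 10. Without aged replicates 1 and 2 the ratios lay between 1.41 (Csf1r) and 2.73 (C1qb), still above 1 for 10 of 10 genes.

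The libraries held 15992576 to 18203223 fragments in the aged group and 14488222 to 17401744 in the young group, as recovered from the FPKM values. Spermatid transcripts were abundant, and the summed level of 8 spermatid markers was 20026 to 26478 FPKM in aged and 20032 to 32241 FPKM in young libraries. The summed level of the 10 macrophage genes was 31.3 to 377 FPKM in aged and 10.6 to 39.3 FPKM in young libraries. In RNA from a whole cell fraction, more cells of a type and more RNA per cell cannot be told apart.

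Apoe (ENSRNOG00000018454, chromosome 1, 80612895 to 80617057, minus strand) encodes apolipoprotein E, which carries cholesterol between cells and is made by macrophages among other cell types. Coordinates are those of the files, and their genome build was not given in the sources used here. Apoe stood at 91.6, 280.2, 22.9, 31.8 and 36.9 FPKM in aged replicates 1 to 5, against 10.6, 8.08, 14.4, 8.21 and 28.2 FPKM in young replicates 1 to 5. Of the aged libraries 4 lay above every young library, and aged replicate 3 lay below young replicate 5. The means were 92.7 ± 108 FPKM in aged and 13.9 ± 8.401 FPKM in young samples (SD, n = 5 each). The difference was 2.16 on the log2(FPKM + 1) scale (SE 0.61, limma adjusted p = 0.319). Apoe was the most abundant of the 10 genes in every library, and it alone had a young mean above 1 FPKM.

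The 3 C1q genes (C1qa, ENSRNOG00000012807; C1qb, ENSRNOG00000012749; C1qc, ENSRNOG00000012804) encode the A, B and C chains that join into C1q, the protein that binds immune complexes and dying cells and starts the classical complement pathway. They lie side by side on the minus strand of chromosome 5, between 155246447 and 155264143, within 17.7 kb and with 0 other genes among them in the files. C1qa stood at 7.61, 18.3, 1.21, 2.44 and 1.99 FPKM in aged replicates 1 to 5, against 0.452, 0.380, 0.915, 0.418 and 2.66 FPKM in young replicates 1 to 5. C1qb stood at 4.97, 12.4, 1.012, 1.81 and 1.30 FPKM in the aged libraries in the same order, against 0.273, 0.315, 0.506, 0.347 and 1.08 FPKM in the young ones. C1qc stood at 6.72, 21.2, 0.952, 1.42 and 1.47 FPKM in the aged libraries, against 0.217, 0.261, 0.817, 0.574 and 1.78 FPKM in the young ones. All 3 chains were high in aged replicates 1 and 2, and young replicate 5 lay among or above the other aged libraries. The log2 differences were 1.51 (SE 0.54) for C1qa, 1.44 (SE 0.45) for C1qb and 1.47 (SE 0.60) for C1qc, with limma adjusted p values of 0.360, 0.323 and 0.392. For C1qb the overlap between the groups was narrow, since only aged replicate 3, at 1.012 FPKM, lay below young replicate 5, at 1.08 FPKM.

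The shares of the C1q chains overlapped between the groups, while their sum varied 55.1-fold over the 10 libraries. Their summed level was 3.17 to 51.9 FPKM in aged and 0.943 to 5.52 FPKM in young libraries. C1qa held 39.5% ± 3.06 of the sum in aged and 41.6% ± 6.99 in young samples (SD, n = 5 each). C1qb held 28.2% ± 3.61 in aged and 26.0% ± 5.27 in young samples, and C1qc 32.3% ± 5.88 and 32.4% ± 7.75. The young shares rest on 17 to 91 C1q fragments per library, the aged ones on 59 to 914. Apoe held 72.3% to 80.4% of the summed level of the 10 genes in aged and 71.7% to 81.2% in young libraries. Since Apoe is most of that sum, its share moves little when Apoe itself changes. Over the C1q sum, Apoe stood at 4.75 to 7.76 in aged and 5.11 to 11.2 in young libraries. For Csf1r the ratio was 0.0925 to 0.205 and 0.159 to 0.399, and for Cd163 0.158 to 0.290 and 0.198 to 0.472. The mean ratio was lower in aged libraries for Apoe, Csf1r, Cd163, Cd68, Tyrobp and Fcer1g and higher for Ctss. All these ranges overlapped, and no test was made.

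**Figure D1:**
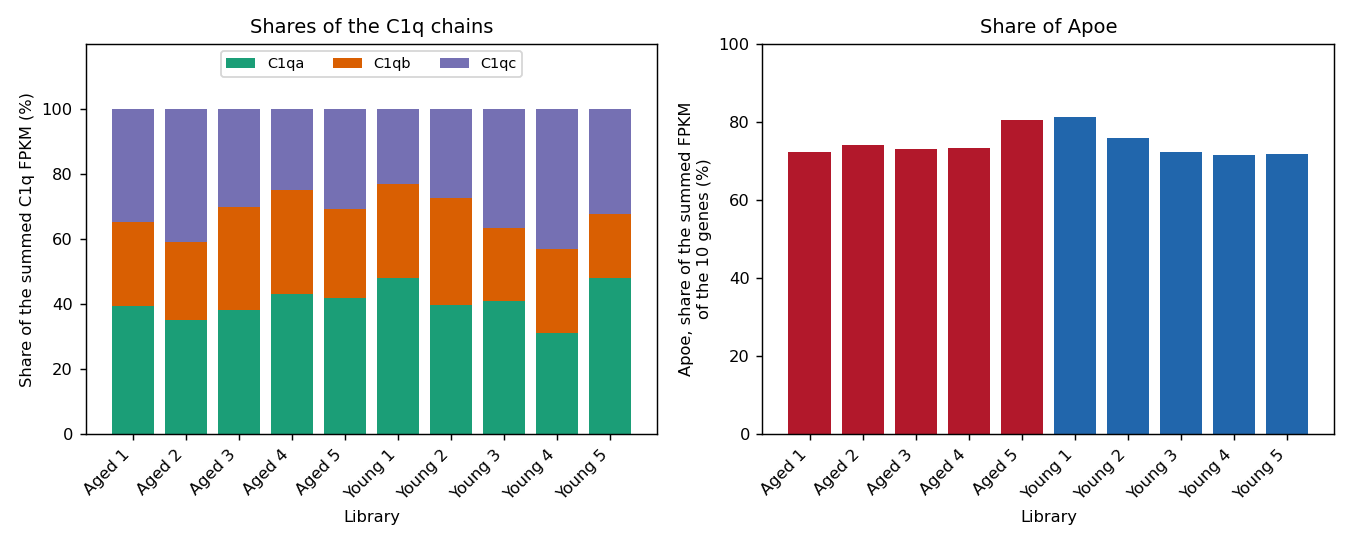
Left, bars stack the shares of C1qa, C1qb and C1qc in their summed FPKM (%) in each of the 5 aged and 5 young libraries; right, bars give the share of Apoe in the summed FPKM of the 10 macrophage genes (%). Apoe is most of that sum. Its share stays between 71.7% and 81.2% in libraries whose summed level runs from 10.6 to 377 FPKM.

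Csf1r and Cd163 are the surface receptors of the group. Csf1r (ENSRNOG00000018414, chromosome 18, 56414488 to 56458300, plus strand) encodes the receptor tyrosine kinase for the growth factors CSF1 and IL34, on which most tissue macrophages depend. It stood at 1.79, 6.98, 0.652, 0.807 and 0.648 FPKM in aged replicates 1 to 5, against 0.238, 0.2997, 0.533, 0.534 and 0.879 FPKM in young replicates 1 to 5. Aged replicates 1 and 2 lay above every young library and the other 3 aged libraries lay between young replicates 4 and 5. Cd163 (ENSRNOG00000010253, chromosome 4, 156752082 to 156785467, plus strand) encodes a receptor that takes up complexes of haemoglobin and haptoglobin. It stood at 3.38, 9.65, 0.920, 0.894 and 0.822 FPKM in the aged libraries, against 0.445, 0.267, 0.723, 0.352 and 1.09 FPKM in the young ones. Its pattern was that of Csf1r, with young replicate 5 above aged replicates 3, 4 and 5. The log2 difference was 0.79 (SE 0.39, limma adjusted p = 0.443) for Csf1r and 1.02 (SE 0.44, limma adjusted p = 0.412) for Cd163.

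Tyrobp (ENSRNOG00000020845, chromosome 1, 88875375 to 88879303, plus strand) and Fcer1g (ENSRNOG00000024159, chromosome 13, 89601896 to 89606326, minus strand) encode small membrane adaptors whose tails carry the tyrosine motif called ITAM. They pair with receptors that have no such tail, Tyrobp with TREM2 among others and Fcer1g with Fc receptors, and pass the signal on to the kinase SYK. Tyrobp stood at 2.68, 4.05, 0.765, 0.987 and 0.815 FPKM in aged replicates 1 to 5, against 0.196, 0.377, 0.341, 0.104 and 1.29 FPKM in young replicates 1 to 5. Young replicate 5 was higher than 3 of the aged libraries, while the other young libraries were below all of them. Fcer1g stood at 2.39, 7.15, 1.37, 1.04 and 0.389 FPKM in the aged libraries, against 0.375, 0.1801, 0.760, 0.496 and 0.205 FPKM in the young ones. Fcer1g was the exception to the high values of young replicate 5: there it had 2 fragments, an exact 95% Poisson range of 0.0249 to 0.742 FPKM, whereas Tyrobp had 12 fragments and a range of 0.666 to 2.25 FPKM. Such ranges cover counting error only. The log2 difference was 0.88 (SE 0.31, limma adjusted p = 0.359) for Tyrobp and 1.03 (SE 0.38, limma adjusted p = 0.370) for Fcer1g.

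Cd68 and Ctss belong to the lysosome. Cd68 (ENSRNOG00000037563, chromosome 10, 56268720 to 56270640, minus strand) encodes a heavily glycosylated protein of lysosome membranes and the classical marker of phagocytes. It had the lowest mean FPKM of the 10 genes in both groups, at 0.651, 3.69, 0.232, 0.576 and 0.198 FPKM in aged replicates 1 to 5, against 0.191, 0.183, 0.166, 0.101 and 0.261 FPKM in young replicates 1 to 5. Outside aged replicate 2, where it had 75 fragments, Cd68 rested on 2 to 15 fragments per library. Its mean over the 10 libraries was below 1 FPKM, so it entered only fits with a lower or no filter: with no filter its log2 difference was 0.60 (SE 0.32, limma adjusted p = 0.570). Ctss (ENSRNOG00000021157, chromosome 2, 197655786 to 197679458, plus strand) encodes cathepsin S, a cysteine protease that trims the invariant chain during antigen presentation. It stood at 4.95, 13.8, 1.34, 1.503 and 1.37 FPKM in the aged libraries, against 0.0598, 0.287, 0.761, 0.316 and 1.83 FPKM in the young ones. Young replicate 5 again lay above aged replicates 3, 4 and 5, and young replicate 1 had 1 fragment. The log2 difference of Ctss was 1.42 (SE 0.50, limma adjusted p = 0.356).

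**Figure D2:**
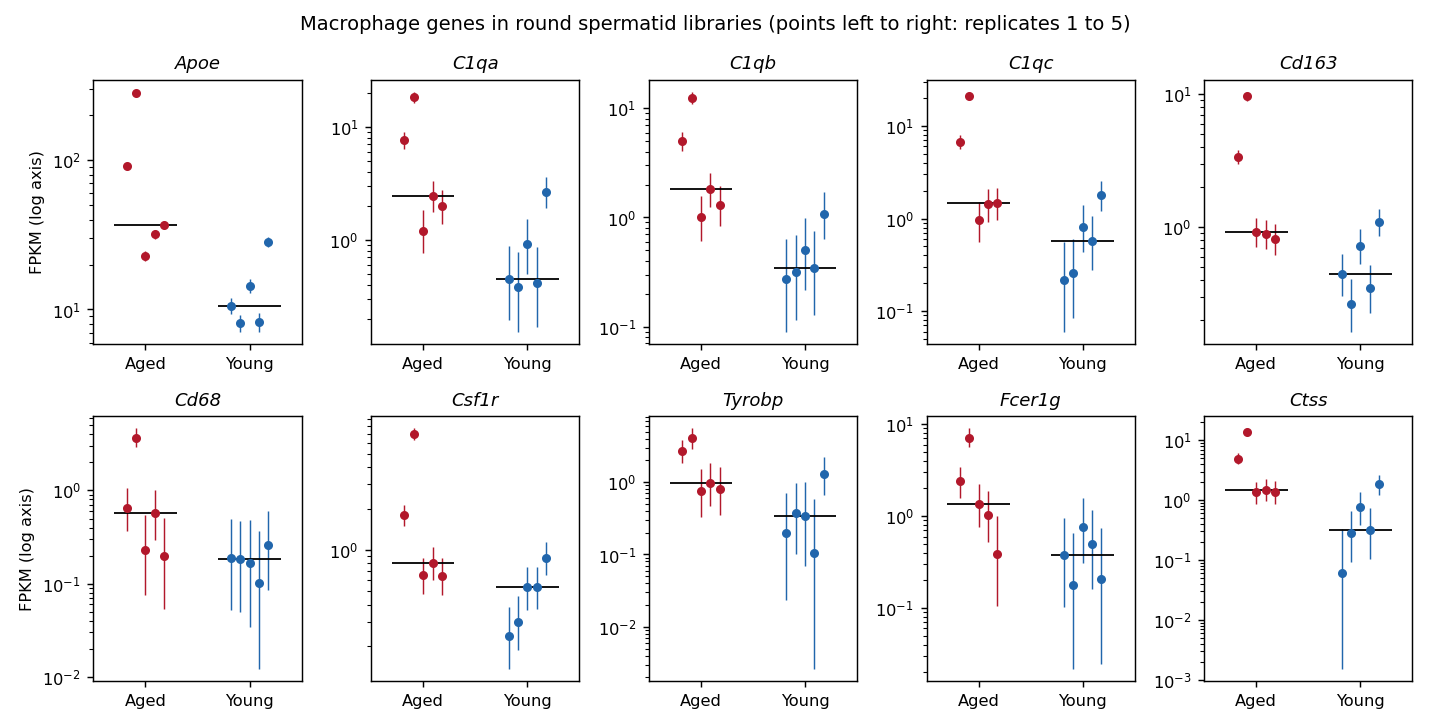
FPKM (log axis) of each macrophage gene in aged replicates 1 to 5 and young replicates 1 to 5, left to right within a group; vertical lines are exact 95% Poisson ranges of the fragment count and horizontal lines are group medians. Aged replicates 1 and 2 are the highest points in every panel, and young replicate 5 is the highest young point except for Fcer1g.

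Among the genes below Apoe, levels per length differed several-fold within each group. The aged means ran from 6.34 FPKM (C1qc) and 6.32 FPKM (C1qa) down to 1.86 FPKM (Tyrobp) and 1.07 FPKM (Cd68). Their SDs between libraries were 1.46 to 8.61 FPKM. Since the genes share libraries, these SDs do not measure differences between genes, and the order was not tested. The young means ran from 0.965 FPKM (C1qa) to 0.1803 FPKM (Cd68). Of the 50 young values, 33 came from fewer than 20 fragments, against 12 of the 50 aged values.

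In the test across all genes, 0 of the 10 macrophage genes passed at an adjusted p of 0.05, and 0.00% of the 12985 genes tested with a mean of at least 1 FPKM did. Of the 10 genes 9 met that mean, and 8 of these met it only through their aged libraries, so a count over the tested genes supports nothing. With no filter, limma placed 7 of 10 at an unadjusted p under 0.05, all higher in aged libraries, where 5.20% of 24839 genes were; the 3 others were Cd163, Cd68 and Csf1r. The 0 adjusted calls held without the filter and with voom, a model of the recovered fragments. The median log2 difference over the 10 genes was 1.23, beside -0.02 over all tested genes. Among all genes with an unadjusted p under 0.05, 46.6% were higher in aged libraries with the values as deposited and 61.4% with voom, both over 12985 genes. After scaling to TPM the share was 63.4%, over the 15020 genes that then had a mean of at least 1, so the set of genes changed together with the scale.

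The aged and young ranges overlapped for 10 of 10 genes, while 1.30% of all genes above 0 had every aged value above every young one. Leaving out young replicate 5 removed the overlap for 9 of 10 genes, Fcer1g excepted, where 2.67% of all genes then had none. The overlap was also gone for Apoe and C1qb without aged replicate 3 (2.68% of all genes) and for Fcer1g without aged replicate 5 (1.87%). It held for 10 of 10 genes without aged replicate 1, 2 or 4, where 1.68%, 1.59% and 2.31% of all genes had none. It also held for 10 of 10 without young replicate 1, 2, 3 or 4, where 1.76%, 1.68%, 1.77% and 1.64% had none. Without aged replicates 1 and 2 the log2 difference was 1.21 (SE 0.38) for Apoe and 0.67 (SE 0.18) for C1qb with no filter, and 0.17 to 0.64 for the 8 other genes. Then 2 of 10 genes, Apoe and C1qb, had an unadjusted p under 0.05, against 3.80% of all genes in that direction. Limma's adjusted p was 0.641 to 0.7997 for the 10 genes, and 0.00820% of all genes passed. Of single libraries, aged replicate 1 moved the count most. Without it 3 of 10 genes had an unadjusted p under 0.05, all higher in aged libraries, where 4.13% of all genes were. Without aged replicates 2, 3, 4 and 5 in turn the count was 7, 9, 8 and 9 of 10, again all higher in aged libraries. In that direction 4.43%, 6.24%, 5.83% and 5.02% of all genes had such a p. Without young replicates 1 to 5 in turn the count was 6, 5, 6, 6 and 6 of 10, where 3.97%, 3.92%, 4.04%, 3.94% and 5.65% of all genes did so in that direction.

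**Figure D3:**
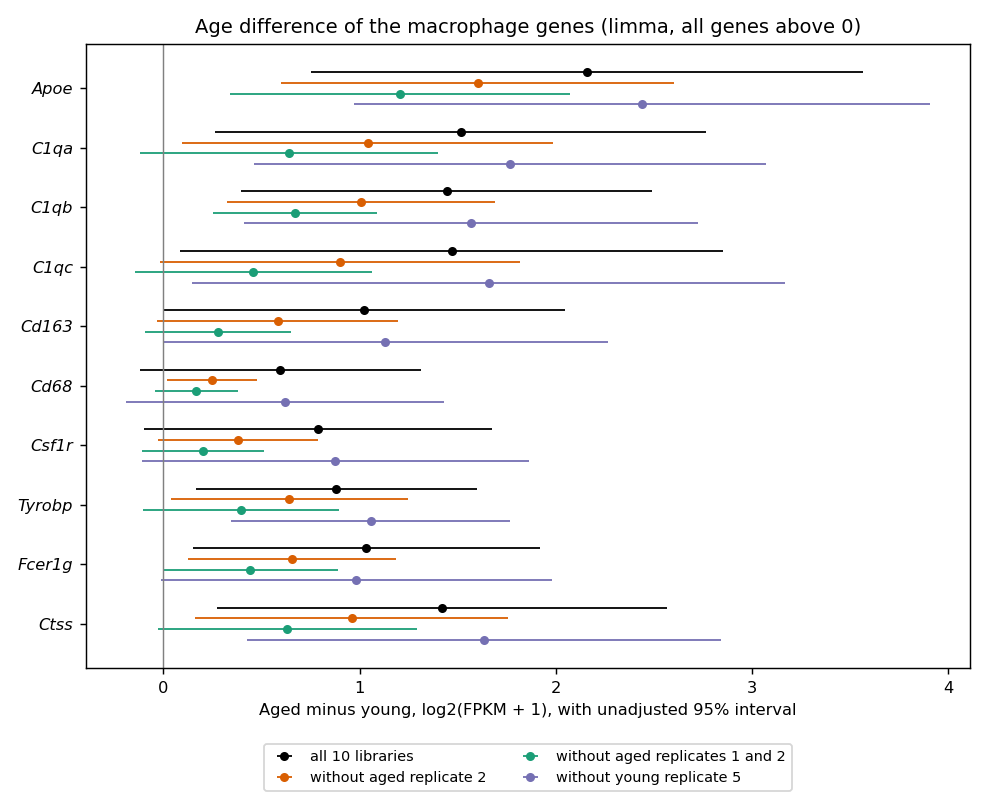
Difference between aged and young libraries in log2(FPKM + 1) with its unadjusted 95% interval from limma for each macrophage gene, fitted over all genes above 0 with all 10 libraries, without aged replicate 2, without aged replicates 1 and 2, or without young replicate 5. Every point lies to the right of 0, and without aged replicates 1 and 2 the interval excludes 0 for Apoe and C1qb only.

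Aged replicate 2 exceeded the mean of aged replicates 3, 4 and 5 by 4.73-fold (Tyrobp) to 16.5-fold (C1qc), with Apoe at 9.18-fold, Ctss at 9.84-fold and Cd163 at 10.98-fold. It exceeded aged replicate 1 by 1.51-fold (Tyrobp) to 5.66-fold (Cd68). Young replicate 5 exceeded the mean of the other young libraries by 1.63-fold (Cd68) to 5.15-fold (Ctss) for 9 genes, and Fcer1g stood at 0.454 of that mean. The SD of log2(FPKM + 1) was larger among aged than among young libraries for 10 of 10 genes, as it was for 51.6% of all tested genes. The added 1 flattens values below 1 FPKM, and only Apoe had a young mean above 1 FPKM. For the other genes a smaller young SD on this scale therefore does not show a smaller spread between young libraries. The highest library was aged replicate 2 for 17.5% of all genes above 0.

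**Figure D4:**
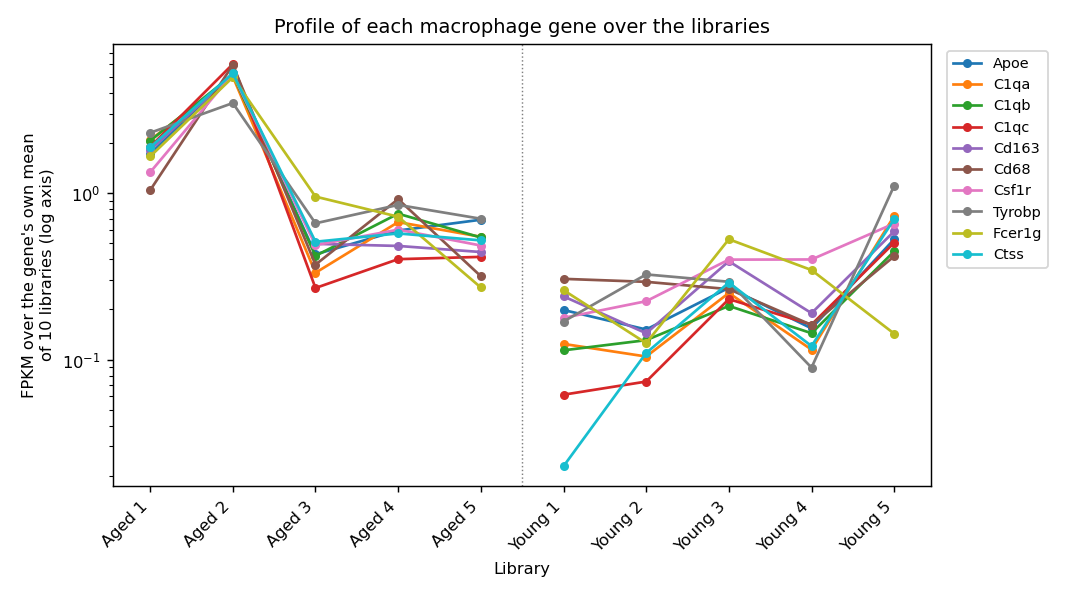
FPKM of each macrophage gene divided by its own mean over the 10 libraries (log axis), in aged and young libraries; lines only join the points of a gene, since replicates have no order. The curves run together, with aged replicate 2 highest for 10 of 10 genes and aged replicate 1 second.

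The genes varied together over the libraries, and the sequence at their starts can be set beside that. PU.1, encoded by Spi1, is the transcription factor that macrophages need to form, and it binds sequences with the core GAGGAA. Of the 10 genes 7 have an entry in the RefSeq promoter table (build GRCr8, 250 bases before to 50 after the start), with 9 entries in all, since Apoe has 3. GAGGAA or its reverse complement TTCCTC was found in entries of 5 of these genes, namely C1qb, Cd68, Csf1r, Ctss and 1 of the 3 entries of Apoe, and in none for C1qa or Cd163. Over the table, 27.6% of the 33469 promoters of this length hold it, and 2.42% hold the longer GAGGAAGT or ACTTCCTC, which contains it and which Ctss has. These shares are per promoter entry, whereas the count of 5 is per gene, and Apoe had 3 entries. A match is only a description of the letters. The promoters of a C1q chain and of both lysosomal genes are shown 5′ to 3′ because they hold the match, which is in capitals.
C1qb promoter (chr5:154407778-154408077, minus strand): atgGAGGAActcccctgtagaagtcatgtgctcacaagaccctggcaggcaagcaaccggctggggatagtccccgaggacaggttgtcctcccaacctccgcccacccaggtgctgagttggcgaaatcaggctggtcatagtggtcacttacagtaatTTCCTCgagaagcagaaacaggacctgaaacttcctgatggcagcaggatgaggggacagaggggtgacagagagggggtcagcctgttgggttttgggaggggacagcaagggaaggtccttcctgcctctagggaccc
Cd68 promoter (chr10:54882392-54882691, minus strand): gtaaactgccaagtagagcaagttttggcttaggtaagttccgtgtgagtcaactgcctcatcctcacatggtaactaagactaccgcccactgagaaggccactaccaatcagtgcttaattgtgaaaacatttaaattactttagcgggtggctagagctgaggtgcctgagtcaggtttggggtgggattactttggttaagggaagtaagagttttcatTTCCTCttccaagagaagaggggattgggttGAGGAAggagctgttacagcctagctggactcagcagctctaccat
Ctss promoter (chr2:185775146-185775445, plus strand): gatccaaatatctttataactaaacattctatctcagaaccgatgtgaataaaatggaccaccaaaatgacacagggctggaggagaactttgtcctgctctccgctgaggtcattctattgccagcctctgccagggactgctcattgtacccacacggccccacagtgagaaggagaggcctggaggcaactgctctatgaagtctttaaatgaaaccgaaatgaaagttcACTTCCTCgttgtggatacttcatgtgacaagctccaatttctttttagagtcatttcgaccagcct

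Markers of other testis cells were measured beside the macrophage genes. The Leydig cell list had 7 of its 8 markers in the files, and 7 of 7 had a higher aged mean. Its summed level was 54.6, 122, 10.95, 14.6 and 17.1 FPKM in aged replicates 1 to 5, against 8.03, 5.09, 6.91, 4.98 and 8.16 FPKM in young replicates 1 to 5. Aged replicates 2 and 1 were thus the highest for this list too. The ratio of the aged to the young mean was 6.62 for the macrophage sum and 6.61 for the Leydig sum, and 2.13 and 2.15 without aged replicates 1 and 2. Sertoli cell markers summed to 32.6 to 132 FPKM in aged and 25.4 to 33.7 FPKM in young libraries (8 of 11 with a higher aged mean), and peritubular markers to 97.0 to 213 and 64.2 to 93.8 FPKM (7 of 8). Endothelial markers summed to 4.59 to 8.69 FPKM in aged and 3.002 to 4.72 FPKM in young libraries (5 of 6), erythroid markers to 6.48 to 24.6 and 2.91 to 7.95 FPKM (5 of 6). All 4 of these sums were highest in aged replicate 2. The part of these other cells in the macrophage gene differences was not tested.

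Markers of other blood cells were measured too. Lymphocyte markers summed to 5.45 to 8.33 FPKM in aged and 6.85 to 8.31 FPKM in young libraries, with 4 of 9 higher in the aged mean. Mast cells also use Fcer1g: their 7 markers summed to 0.197 to 0.493 FPKM in aged and 0.247 to 0.612 FPKM in young libraries, and Fcer1a, the receptor chain that defines them, was listed at 0 in every library. The 6 neutrophil markers summed to 0.170 to 1.95 FPKM in aged and 0.188 to 0.757 FPKM in young libraries, with Elane listed at 0 in every library. A listed 0 does not show that a gene is silent, since Fth1, a ferritin chain that every cell uses, was also listed at 0 in every library. Fth1 is named here after its values were seen. The spermatid sum had a ratio of 0.894 between the groups.

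In young replicate 5 the macrophage sum was 2.86 times the mean of the other young libraries, the Leydig sum 1.30 times, the peritubular sum 1.31 times, the endothelial sum 1.09 times and the Sertoli sum 0.968 times. In aged replicate 2, the macrophage sum was 9.39 times the mean of aged replicates 3, 4 and 5, the Leydig sum 8.57 times, the Sertoli sum 3.54 times and the peritubular sum 2.05 times. The 9 genes other than Apoe stood at 0.525 to 0.797 of the Leydig sum in aged and at 0.305 to 1.36 of it in young libraries, ranges that overlap. The lowest and the highest of these ratios were both in young libraries, in replicates 1 and 5. These are single libraries, so no test of the difference was made.

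**Figure D5:**
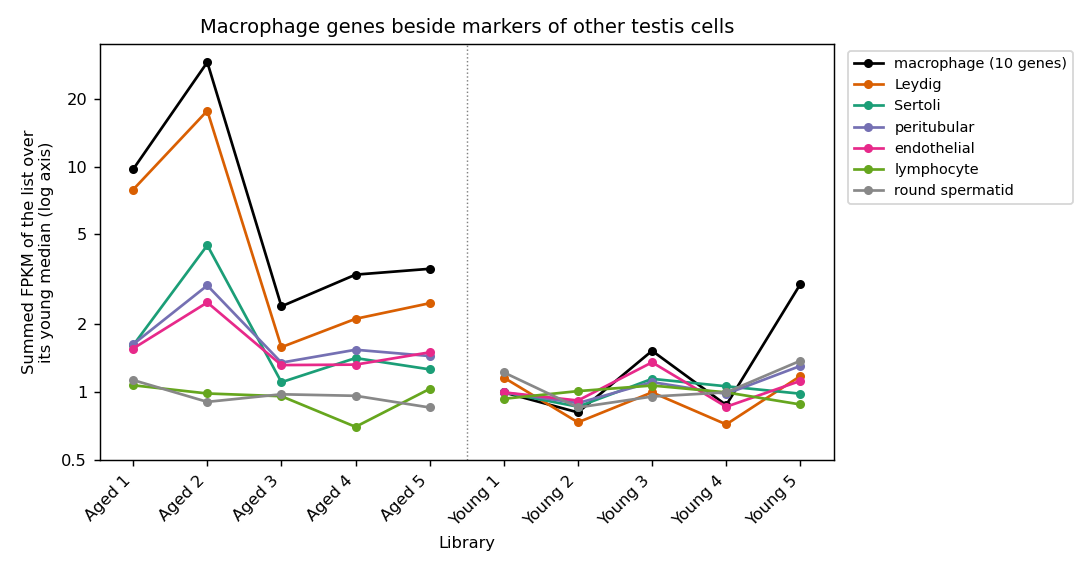
Summed FPKM of each marker list divided by its median over young libraries (log axis), in aged and young libraries; lines only join points of a list. In aged replicate 2 the macrophage sum is 29.0 times and the Leydig sum 17.7 times the young median, and in young replicate 5 they are 3.01 and 1.18 times it.

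Of 35 other macrophage and monocyte genes, 11 reached a mean of 1 FPKM and 0 passed at an adjusted p of 0.05. Of the 11, 9 were higher and 2 lower in aged libraries, with a median log2 difference of 0.21. Of these, 3 had a young mean below 1 FPKM and met the filter only through their aged libraries, so the counts and the median over tested genes support nothing. The same holds in the lists that follow, where such genes number 2 for complement, 2 for ITAM signalling, 0 for Csf1r signalling, 1 for the lysosome, 3 for sterol handling and 1 for scavenger receptors. At an unadjusted p under 0.05 there were 3 higher and 2 lower, where 5.54% of all tested genes were higher and 6.35% lower. Levels of the more abundant genes differed in pattern. Aif1, the calcium-binding protein also known as Iba1, averaged 146 ± 8.52 FPKM in aged and 143 ± 16.3 FPKM in young samples (SD, n = 5 each), and Lcp1, an actin bundler of blood cells, 9.15 ± 0.879 and 9.04 ± 1.32 FPKM. Adgre1, which encodes the F4/80 antigen of mouse macrophages, averaged 5.80 ± 0.672 FPKM in aged and 7.16 ± 0.884 FPKM in young samples, and Cx3cr1, the receptor of fractalkine, 4.48 ± 0.404 and 5.69 ± 0.908 FPKM. Their highest libraries were young ones. Lgals3, which encodes galectin-3, averaged 4.13 ± 3.06 FPKM in aged and 1.41 ± 0.745 FPKM in young samples and reached 9.16 FPKM in aged replicate 2.

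Over all 35 genes, 29 were highest in aged replicate 2. The genes named next were chosen after their values were seen. Mrc1, the mannose receptor and by mean FPKM between Lcp1 and Adgre1, had its highest level in aged replicate 2, at 11.3 FPKM, and its next in aged replicate 1, at 8.13 FPKM, and young replicate 5 was the highest young library at 7.16 FPKM. Lyz2, a lysozyme, reached 14.8 FPKM and Pf4, a chemokine, 16.1 FPKM in aged replicate 2. Cd4, which rat macrophages also carry, reached 10.6 FPKM in aged replicate 2, and the other aged libraries lay between 0.613 and 3.33 FPKM, against 0.260 to 1.30 FPKM in young libraries. Folr2, a folate receptor of resident macrophages, reached 8.67 FPKM in aged replicate 2 and 0.259 FPKM or more in the other aged libraries, against 0.409 FPKM or less in young libraries. Spi1 stayed at 0.120 to 0.771 FPKM in aged and 0.0599 to 0.346 FPKM in young libraries. Ptprc, the CD45 antigen of all white blood cells, was at 0.0122 to 0.483 FPKM in aged and 0.0113 to 0.141 FPKM in young libraries. Ccr2, a receptor of newly arriving monocytes, had 1 fragment in all 10 libraries.

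Of 20 listed complement genes 12 were tested. In aged libraries 9 were higher and 3 lower, the median log2 difference was 0.31, and 0 passed at an adjusted p of 0.05. C1r and C1s, the proteases that C1q carries, are named here after their values were seen. C1r stood at 9.41, 24.1, 1.42, 2.60 and 2.62 FPKM in aged replicates 1 to 5, against 1.67, 1.09, 1.63, 1.49 and 2.62 FPKM in young replicates 1 to 5. C1s reached 18.9 FPKM in aged replicate 2 and lay between 2.29 and 7.78 FPKM in the other aged libraries, against 2.05 to 3.09 FPKM in the young ones. Aged replicates 3, 4 and 5 lay within the young range for C1r, and for C1s aged replicate 5 lay just above it at 3.38 FPKM. Cfd, complement factor D, averaged 6.08 ± 6.83 FPKM in aged and 0.637 ± 0.542 FPKM in young samples, with a log2 difference of 1.71 (SE 0.50, limma adjusted p = 0.319). Every aged value of Cfd lay above every young one, as in 1.30% of all genes above 0. Serping1, the inhibitor of C1r and C1s, averaged 6.92 ± 7.82 and 1.70 ± 0.690 FPKM. Calr, a chaperone that is also a C1q receptor, averaged 211 ± 8.15 and 213 ± 8.50 FPKM, Cd46 17.6 ± 1.27 and 19.0 ± 3.21 FPKM, and Cd55 17.2 ± 0.959 and 18.9 ± 0.971 FPKM. Cd46 and Cd55 encode regulators that protect cells from complement, and CD46 also sits on the acrosome of rodent sperm.

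Of 22 listed receptors and signalling genes that work with Tyrobp, Fcer1g and like adaptors, 6 were tested. Of these 5 were higher and 1 lower, the median log2 difference was 0.09, and 0 were at an unadjusted p under 0.05. Fcgr1a, the high-affinity IgG receptor that pairs with Fcer1g, averaged 4.28 ± 0.790 FPKM in aged and 3.90 ± 0.467 FPKM in young samples, and Lyn, a kinase that acts on ITAMs, 3.20 ± 0.803 and 3.08 ± 0.509 FPKM. Inpp5d, Sirpa and Plcg2 had log2 differences of 0.19, 0.16 and 0.09. Trem2, chosen after its values were seen, reached 2.16 FPKM in aged replicate 2, and the other aged libraries lay between 0.159 and 0.931 FPKM, against 0.0512 to 0.196 FPKM in young libraries.

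Of the ligands of Csf1r, Il34 averaged 11.6 ± 1.76 FPKM in aged and 11.5 ± 0.715 FPKM in young samples, with a log2 difference of -0.00 (SE 0.09), and its highest library was aged replicate 5. Csf1, named here after its values were seen, was below the filter at 0.273 to 0.994 FPKM in aged and 0.322 to 0.544 FPKM in young libraries. Like Csf1r, it was highest in aged replicate 2 and next in aged replicate 1, with young replicate 5 the highest young library. Of the 6 tested genes of this list 1 was higher and 5 lower, with a median of -0.06 and 0 at an unadjusted p under 0.05. Cbl, Dok2 and Gab2 had log2 differences of -0.10, -0.21 and -0.10, and Stat3 one of 0.29.

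Of 19 listed lysosomal proteases and their partners 17 were tested, and all 17 were higher in aged libraries. At an unadjusted p under 0.05 there were 8, where 5.54% of all tested genes were higher at that p, at an adjusted one 0, and the median log2 difference was 0.37. Ctsb, cathepsin B, stood at 25.0, 73.7, 8.14, 7.48 and 8.22 FPKM in aged replicates 1 to 5, against 2.99, 2.63, 4.62, 3.25 and 8.31 FPKM in young replicates 1 to 5. Its aged libraries 3 to 5 thus lay near young replicate 5 and above the 4 other young libraries. Cst3, the secreted cathepsin inhibitor cystatin C, averaged 201 ± 35.2 FPKM in aged and 163 ± 5.78 FPKM in young samples, and Psap, which gives rise to the saposins, 30.4 ± 18.7 and 15.6 ± 2.45 FPKM. Lamp1, a membrane protein of lysosomes in all cells, averaged 178 ± 4.12 and 177 ± 2.09 FPKM. Of 18 list members in the files, 17 were highest in aged replicate 2, Lamp1 being the exception.

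Genes of sterol handling had 8 of 12 tested members higher in aged libraries, with a median log2 difference of 0.22, 3 of them at an unadjusted p under 0.05 (5.54% of all tested genes in that direction) and 0 at an adjusted one. Those 3 were Nr1h2, a sterol-sensing nuclear receptor, at 0.23 (SE 0.10), Lrp1, a receptor that takes up apolipoprotein E, at 0.68 (SE 0.30), and Abca1, a cholesterol exporter, at 0.45 (SE 0.20). Vldlr, also a receptor of apolipoprotein E, averaged 32.5 ± 1.35 FPKM in aged and 30.6 ± 3.09 FPKM in young samples, and Plin2, a coat protein of lipid droplets, 17.2 ± 1.66 and 14.8 ± 2.22 FPKM. Of the scavenger receptors and genes of haem handling 8 were tested and 5 were higher. Their median log2 difference was 0.41, with 3 at an unadjusted p under 0.05, all higher (5.54% of all tested genes), and 0 at an adjusted one. Gas6, which bridges dying cells to phagocytes, averaged 4.87 ± 2.49 FPKM in aged and 2.28 ± 0.280 FPKM in young samples, without overlap (log2 difference 0.76, SE 0.21, limma adjusted p = 0.319). Scarb2 had a log2 difference of 0.50 (SE 0.20) and also no overlap. With Cfd, these were the 3 tested genes of the related lists whose aged values all lay above the young ones, as in 1.30% of all genes above 0. Cfd and Scarb2 had young means of 0.637 and 0.797 FPKM and met the filter only through their aged libraries, so this count supports nothing. Ftl1, a ferritin chain that stores iron, averaged 54.2 ± 19.5 and 37.7 ± 4.57 FPKM, and Stab2, a scavenger receptor, 7.58 ± 0.558 and 7.70 ± 0.185 FPKM.

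The genes most like the 10 were sought among all tested genes with an assigned symbol. Each gene's log2(FPKM + 1) was centred and scaled over the 10 libraries, and the root mean square distance to the average of the 9 tested macrophage genes was taken, where the median gene lay at 1.39. The nearest was Ctsb, at 0.0981, followed among genes outside the 10 by Pltp, a phospholipid carrier of the blood, at 0.136, Fcgrt, the neonatal Fc receptor, at 0.141, Ass1 at 0.147, Prdx3 at 0.147, Sod3 at 0.148, Aldh2 at 0.152 and Cfd at 0.153. The distance of the macrophage genes themselves ran from 0.1002 (C1qc) to 0.364 (Fcer1g). Each of the 9 is part of that average, which draws its own distance down. Their distances therefore cannot be ranked against those of outside genes. Without aged replicates 1 and 2, over 8 libraries, Ctss lay at 0.203 as part of the average. Ctsb was the nearest outside the 10, at 0.218. The next outside them were Flna, Cav1, Acta2, Bcam, Prex1, Ncoa3 and Bccip, at 0.222 to 0.287, of which Acta2 is a marker of the peritubular list. Fcer1g lay at 0.953 in that comparison and the 8 other tested macrophage genes at 0.203 to 0.385.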

How the data were processed

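RNA of STA-PUT round spermatids went into SMARTer mRNA libraries, per the labels' protocols. The deposited files give FPKM values that the authors computed, 1 file per sample; per the submitters' processing notes HISAT2 2.0.5 and featureCounts 1.5.0-p3 were used, and settings, strand and build were not given there. Gene names, lengths and coordinates are those of the files. Whole fragments were recovered from FPKM, gene length and the smallest step of each library: within 0.001, 100% of values above 0 were whole. The recovered total was 14488222 to 18203223 fragments, and FPKM had been scaled to 0.966 to 1.03 times that total. No member overlaps another gene in the files. Replicates of a group differed by more than sampling noise (chi-square per degree of freedom 4.17 to 15.4), so none was counted as a copy.

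Aged was compared with young in limma 3.58.1 (R 4.3.3; lmFit, eBayes with trend) on log2(FPKM + 1) over genes averaging 1 FPKM or more, two-sided, with Benjamini-Hochberg adjustment over all tested genes and a threshold of 0.05. The fit was also run on simulated data with a common spread for all genes, no very low counts and no deviating library. That run therefore does not show how well the fit works for the 10 members. This scale understates changes of low genes. The labels name no batch. Samples with the same replicate number did not deviate together, so they were not treated as pairs. Members, lists and tests were chosen with earlier results of these data known, so members get no test as a list. Named genes are all 10 members and, of each related list, the 2 most abundant tested genes and up to 3 with the smallest unadjusted p; others are marked. List genes with more than 1 entry in the files were left out. Alternatives were another pseudocount, other filters, median-of-ratios and TPM scaling, voom, sample weights, a replicate block, an exact permutation test and leaving out libraries.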

Additional observations from a re-analysis of the deposited data

Results flagged for a closer look

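Within a group of 5, a highest library was marked when its gap to the next exceeded 0.71 of the group's range (Dixon's test). For normally distributed values, a gap of that size at either end arises in about 1 of 20 groups. At the highest end alone it is rarer, and FPKM values need not be normally distributed. The share of all genes marked by this rule was not counted, so the marks are a description only. Of the 20 groups, 10 genes in aged and in young libraries, 9 were marked. The groups are not independent, since the 10 genes vary together over the same libraries. Aged replicate 2 stood apart for 6 genes: Apoe at 280.2 FPKM where the next aged library had 91.6, C1qc at 21.2 against 6.72, Cd163 at 9.65 against 3.38, Cd68 at 3.69 against 0.651, Csf1r at 6.98 against 1.79, and Ctss at 13.8 against 4.95 FPKM. Young replicate 5 stood apart for 3 genes: C1qa at 2.66 FPKM where the next young library had 0.915, C1qb at 1.08 against 0.506, and Tyrobp at 1.29 against 0.377 FPKM.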

How the results depend on the processing

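The difference of each of the 10 genes stayed positive under every setting, and 0 of them passed at limma's adjusted p of 0.05. At an unadjusted p under 0.05 there were 8 of the 9 tested genes as reported, all higher in aged libraries. In that direction 5.54% of all tested genes had such a p. All of the 9 but Apoe met the filter only through their aged libraries, so the count supports nothing. With a filter at a mean of 5 FPKM there was 1, where Apoe alone was tested and 4.51% of all tested genes were higher. Without aged replicates 1 and 2 there was 1 of 2, against 3.47%. Leaving out single libraries gave 5 of 5 tested genes without aged replicate 2, 5 of 8 without aged replicate 1 and 6 to 9 of 9 otherwise. Of all tested genes 4.21% to 6.93% were then higher at that p. With no filter there were 3 to 9 of 10, including 3 without aged replicate 1 and 5 without young replicate 2, against 3.92% to 6.24% of all genes. Without aged replicates 1 and 2 and with no filter there were 2 of 10, against 3.80%. The median log2 difference over the 10 genes, 1.23 as reported, was 2.07 with a pseudocount of 0.1 FPKM, 2.17 with voom, 0.45 without aged replicates 1 and 2, and 0.78 to 1.46 with single libraries left out. Over all genes, 1544 had an unadjusted p under 0.05 as reported, 887 with the filter at 5 FPKM, 2379 with no filter and 939 without aged replicates 1 and 2. Leaving out single libraries gave 1154 to 2186, or 1837 to 3006 with no filter, including 2670, 2603 and 3006 without aged replicate 3, aged replicate 4 and young replicate 5. Adjusted calls over all genes were 0 as reported and 0 or 1 with single libraries left out. With no filter they were 1 without aged replicate 2, aged replicate 4 or young replicate 4, 2 without young replicate 1, and 2 without aged replicates 1 and 2. The leave-outs with no filter were chosen after seeing the data. The cause of these moves was not tested beyond the number of genes and samples in each fit.

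Samples with the same replicate number did not deviate together (correlations of -0.158 to 0.0541 over 5 pairs, 0 above 0.1). Whether these numbers mark batches is not given in the labels and was not tested. With a replicate block, 7 of the 9 tested macrophage genes had an unadjusted p under 0.05, all higher in aged libraries. Over all tested genes 1255 had such a p, and 4.77% were higher at that p. With this block 0 passed the adjustment and the median was again 1.23. Exact two-sided permutation tests of each of the 9 tested genes gave unadjusted p values of 0.0159 to 0.0476, where 252 splits allow 0.00794 at the smallest. All of these but Apoe met the filter only through their aged libraries, and the permutation test was not run over all genes. The number of these p values under 0.05 therefore supports nothing, and the same holds for the 7 with a replicate block. Counting error limits the low genes most: 33 of 50 young values rest on fewer than 20 fragments.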
